A study of Rattus norvegicus with 2 samples.

Results

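Neurons keep a steep calcium gradient across the endoplasmic reticulum and the plasma membrane, and 10 genes of the channels and pumps that set it were followed here in sympathetic neurons of the rat stellate ganglion. They encode the ryanodine receptors (Ryr1, Ryr2 and Ryr3), the inositol trisphosphate (IP3) receptors (Itpr1, Itpr2 and Itpr3), the endoplasmic reticulum calcium pump SERCA2 (Atp2a2) and the plasma membrane calcium pumps PMCA1, PMCA2 and PMCA4 (Atp2b1, Atp2b2 and Atp2b4). The genes were chosen by name from these families, and each of the 10 has 1 line among the 25399 lines of the deposited expression values. Cells of dissociated stellate ganglia, the sympathetic ganglia that supply the heart, were sequenced in droplets with 10x Genomics 3' v3 chemistry. There was 1 library of normotensive Wistar rats and 1 library of prehypertensive spontaneously hypertensive rats (SHRs), both from male rats of 5 to 6 weeks of age with no treatment in the labels. Wistar is an outbred stock and SHR an inbred strain, so the comparison is between strains and not between littermates. The number of animals and of neurons behind each library is not given in the sources used here.

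The value for each gene was the mean over the cells of the sympathetic neuron cluster, scaled to 10000 counts per cell after the deposited natural logs had been undone. With 1 library per strain there was no spread between replicates, so the differences below carry no error and no test, and they compare 2 libraries. A mean over cells does not tell fewer cells with a transcript from less transcript per cell. The authors describe 2 populations of sympathetic neurons, which differ mainly in the cotransmitter neuropeptide Y. With 1 mean per gene and library these populations are not told apart, and their mix in each library was not tested. The depth per neuron is unknown. The lowest mean above 0 was 0.00014 per 10000 in the Wistar library and 0.000391 in SHR. Counting at the 3' end gives 1 count per captured transcript whatever its length, so levels of different genes are set side by side on this scale without a correction for length.

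Calcium release from stores uses 2 kinds of channel. Ryanodine receptors open when cytosolic calcium rises, and amplify the calcium that enters through voltage-gated channels during firing. IP3 receptors open when phospholipase C, switched on by receptors such as those for acetylcholine and bradykinin, makes IP3. In sympathetic neurons, IP3-driven calcium release is one of the routes by which receptors close M current channels. SERCA pumps refill the store, and PMCA pumps, together with sodium-calcium exchangers, push calcium out of the cell.

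The neuron cluster held the transcripts that define it in both libraries. Its 6 sympathetic markers summed to 42.2 per 10000 in the Wistar library and 36.1 in SHR, and Slc6a2, the noradrenaline transporter, led them. Of the 6, 5 were lower in SHR, with changes of -37.6% for Dbh, which makes noradrenaline, and -32.1% for the vesicular transporter gene Slc18a2, and the transcription factor gene Hand2 was higher, with a change of 80.5%. Markers of most other cell types had lower sums in the SHR library. Satellite glia and Schwann cell markers summed to 8.11 per 10000 in the Wistar library and 2.77 in SHR, with all 6 genes lower, and Apoe made up most of both sums. Fibroblast markers summed to 1.00 and 0.200 per 10000 with 4 of 4 genes lower, and immune cell markers to 0.277 and 0.0412 with 3 of 4 lower. Endothelial markers summed to 0.0466 and 0.0212 with 3 of 3 lower, while Pecam1, also on that list, has no line. Smooth muscle and pericyte markers summed to 0.107 and 0.0684, mostly Myh11, with 2 of 4 lower. Of the 5 striated muscle markers, Actc1 and Myh7 were at 0 in both libraries, and the sum, mostly Acta1, was 0.601 in the Wistar library and 0.635 in SHR. The part of transcripts from other cells in the results below was not tested.

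The pumps were abundant and the release channels scarce. Together the 10 genes summed to 12.4 counts per 10000 in the Wistar library and 9.71 in SHR. The 4 pump genes held 11.7 of these in the Wistar library and 9.38 in SHR, and the 6 release channel genes 0.706 and 0.329. Each of the pump genes had a higher mean than any release channel gene, in both libraries.

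**Figure D1:**
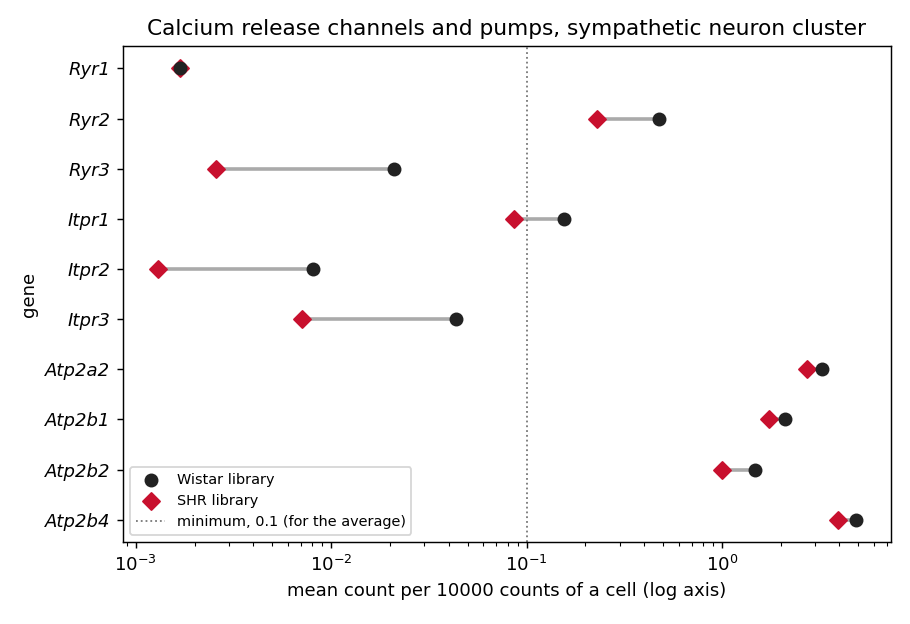
Mean count per 10000 counts of a cell (log axis) of the 10 genes in the Wistar library (black circles) and the SHR library (red diamonds), 1 library each. The SHR value lies left of the Wistar value for 9 of the 10 genes, and both values of Ryr1 fall on 1 point near 0.0017.

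Within each library the order of the pumps was the same. Atp2b4 had the highest mean, followed by Atp2a2, Atp2b1 and Atp2b2. Without replicates, whether neighbours in this order differ beyond their spread cannot be said.

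Atp2b4, which encodes PMCA4, had a mean of 4.84 per 10000 in the Wistar library and 3.91 in SHR, a change of -19.1% in the SHR library. It stood at rank 262 of all genes in the Wistar library and 376 in SHR. With clone, LOC and similar names left out, Scn3b, Gabbr1 and Gata2 had the pairs of values nearest to those of Atp2b4. The measure was Euclidean distance on the log2 scale over the 2 libraries. Scn3b, a sodium channel beta subunit gene, was the closest, with means of 4.97 and 3.81 per 10000 and a distance of 0.0444.

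Atp2a2, whose product SERCA2 is the housekeeping pump of the endoplasmic reticulum, had a mean of 3.24 per 10000 in the Wistar library and 2.72 in SHR. This was a change of -16.1%, the smallest of the 4 pumps. Its relative Atp2a3 was listed at 0.00765 per 10000 in the Wistar library and at 0 in SHR, and Atp2a1 has no line in the values used here. Atp2a2 was the only SERCA gene listed above 0 in both libraries. Pln, which encodes the SERCA inhibitor phospholamban of heart muscle, was near the bottom of the scale at 0.00190 per 10000 in the Wistar library and 0.00150 in SHR. Sln, the sarcolipin gene, was at 0 in both.

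Atp2b1, the gene of the ubiquitous PMCA1, lies at a locus associated with human blood pressure. Its mean was 2.11 per 10000 in the Wistar library and 1.74 in SHR, a change of -17.4%. Atp2b2 encodes PMCA2, the fast pump of neurons and hair cells, and went from 1.47 in Wistar to 1.00 in SHR, a change of -31.9%, which was the largest of the 4 pumps. The SHR mean was the lower one for all 4 pumps, in a comparison where 45.5% of the genes with an average of at least 1 per 10000 were lower.

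The promoters of 4 of these genes are shown to give the sequence in front of the genes that the results turn on. Whether upstream sequence bears on the differences was not tested. The 4 are the pump gene of highest mean, the SERCA gene, the pump gene with the largest percent change and the release channel gene of highest mean. Each stretch is the 150 bases before the annotated start in the RefSeq annotation of the GRCr8 assembly, a BN rat and neither of the strains studied, read 5' to 3' on the strand of the gene. Capitals mark the GC box GGGCGG on either strand. Atp2b4 lies at chr13:47758877-47759026 (minus strand), Atp2a2 at chr12:39733369-39733518 (plus strand), Atp2b2 at chr4:148763654-148763803 (minus strand) and Ryr2 at chr17:63081377-63081526 (plus strand).
Atp2b4: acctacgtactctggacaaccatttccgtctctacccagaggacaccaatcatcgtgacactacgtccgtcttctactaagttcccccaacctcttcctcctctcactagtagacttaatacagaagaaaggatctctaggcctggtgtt
Atp2a2: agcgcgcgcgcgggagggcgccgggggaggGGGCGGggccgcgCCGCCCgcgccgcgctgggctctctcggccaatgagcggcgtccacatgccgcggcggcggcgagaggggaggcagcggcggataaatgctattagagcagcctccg
Atp2b2: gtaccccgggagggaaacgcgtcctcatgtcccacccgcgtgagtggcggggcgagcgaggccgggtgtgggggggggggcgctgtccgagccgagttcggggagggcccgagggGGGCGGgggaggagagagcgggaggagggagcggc
Ryr2: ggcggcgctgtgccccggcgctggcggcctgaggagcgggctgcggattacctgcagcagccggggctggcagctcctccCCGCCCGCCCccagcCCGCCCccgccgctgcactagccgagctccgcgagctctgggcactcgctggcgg

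Over the 250 bases before the start, Atp2a2 had 45 CG dinucleotides and a GC content of 80.0%, against 6 and 46.4% for Atp2b4. The median over 6391 promoters of genes past the expression minimum given below was 17 CG dinucleotides. A GC box was found in 9 of the 11 promoters listed for the 10 genes (Ryr3 has 2), the exceptions being Atp2b4 and Itpr1. Of the 6 promoters whose genes passed that minimum 4 had one, as had 62.1% of all promoters of such genes. Neither the TATA box letters TATAAA nor the cyclic AMP response half-site TGACG, on either strand, occurred before any of the 11 starts. They occurred in 12.9% and 18.2% of all 33469 promoters, and in 5.84% and 31.0% of the promoters of genes past the minimum. The 11 promoters include those of genes under the minimum. These matches describe letters only, and 3' counts do not show which start the neurons use.

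Ryr2 was the main ryanodine receptor gene of these neurons. Its product is the release channel of heart muscle and the main one of the brain. It had a mean of 0.475 per 10000 in the Wistar library and 0.230 in SHR, a change of -51.6%. Ryr3, a receptor of wide but low expression, had 0.0209 per 10000 in the Wistar library and 0.00256 in SHR. Ryr1, the skeletal muscle receptor, was at 0.00168 and 0.00169. The Ryr1 value was 12.1 times the lowest mean above 0 in the Wistar library and 4.32 times that in the SHR library. Ryr1 was the gene of the 10 that was not lower in SHR, and at this level its pair of values gives no direction.

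Itpr1 led the IP3 receptor genes, as is known for neurons. Its mean was 0.156 per 10000 in the Wistar library and 0.0864 in SHR, a change of -44.6%. Itpr3, which is best known from epithelial cells, was listed at 0.0437 in the Wistar library and 0.00705 in SHR. Itpr2, a receptor of heart muscle and glia, was at 0.00806 and 0.00130. The SHR values of Ryr3, Itpr2 and Itpr3 were 6.56, 3.33 and 18.0 times the lowest mean above 0 of that library. The SHR means of Itpr2 and Ryr3 lie near the bottom of the scale, as that of Ryr1 does, and no fold is given for them. The glial marker sum changed by -65.9%, and whether part of the Itpr2 and Itpr3 counts came from other cells was not tested.

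The makeup of a family within a library does not depend on how the library was scaled. Ryr2 held 95.5% of the ryanodine receptor sum in the Wistar library and 98.2% in SHR. Itpr1 held 75.1% of the IP3 receptor sum in the Wistar library and 91.2% in SHR, and Itpr3 held 21.0% and 7.44%. Atp2b4 led the 3 PMCA genes in both. It held 57.4% of their sum in the Wistar library and 58.8% in SHR, Atp2b1 25.1% and 26.2%, and Atp2b2 17.5% and 15.0%.

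**Figure D2:**
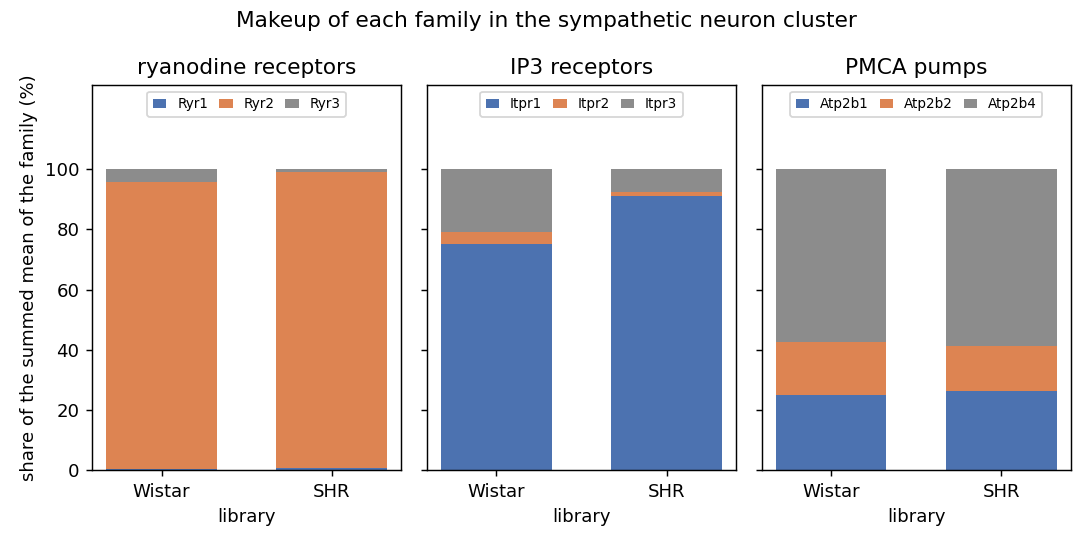
Share of the summed mean of each family (percent) held by each gene, in the Wistar library and the SHR library. Ryr2 and Itpr1 fill most of their bars, and the share of Itpr3 is 21.0% in the Wistar library and 7.44% in SHR, while Atp2b4 has the largest PMCA share in both.

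In percent of the family sum, the release channels differed more between the libraries than the pumps, an order that does not hold gene by gene on the log2(1 + mean) scale given below. The ryanodine receptor sum went from 0.498 per 10000 in Wistar to 0.234 in SHR, a change of -53.0%, and the IP3 receptor sum from 0.208 to 0.0947, a change of -54.4%. The PMCA sum went from 8.42 to 6.66, a change of -20.9%. Ratios between families are free of scaling too. The ryanodine receptor sum was 2.40 times the IP3 receptor sum in the Wistar library and 2.47 times in SHR. For the PMCA sum over Atp2a2 the ratio was 2.59 in the Wistar library and 2.44 in SHR. The sum of pumps was 16.5 times that of release channels in the Wistar library and 28.5 times in SHR. Pumps and release channels differ in level, which this ratio does not take into account. Of all genes averaging at least 1 per 10000, 11.6% were lower in SHR by 1.5 times or more. Between 0.1 and 1 the share was 30.7%, and under 0.1 it was 55.1%. None of these differences could be tested with 1 library per strain.

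The values of all genes give the background for these differences. An average of both libraries of at least 0.1 per 10000 was passed by 7621 genes and by 6 of the 10 (Ryr2, Itpr1 and the 4 pumps). Itpr1 passed through its Wistar value, since its SHR mean was under the minimum. All 6 were lower in SHR, where 65.6% of the genes past the minimum were lower. By a size of 1.5 times or more, Ryr2 and Itpr1 were lower, 2 of 6 genes, against 26.5% of all, and none was higher, against 5.22%. With no minimum, and with the near-floor values of Ryr3 and Itpr2 counted, 9 of the 10 genes were lower, against 68.1% of the 16389 genes above 0 in either library, and 5 of the 10 were lower by 1.5 times or more, against 41.8%.

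Level matters to this background. Among the 1676 genes with an average of at least 1 per 10000, 45.5% were lower in SHR and 11.6% were lower by 1.5 times or more. All 4 pumps belong to these genes and all were lower, but none by 1.5 times. Ryr2 and Itpr1 belong to the 5945 genes between 0.1 and 1 per 10000, of which 71.2% were lower and 30.7% lower by 1.5 times or more. Ryr1, Ryr3, Itpr2 and Itpr3 lie among the 8768 genes above 0 and under 0.1, of which 70.2% were lower and 55.1% lower by 1.5 times or more. The shares at the larger sizes of the scarce release channels were not counted.

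On the scale of log2(1 + mean), on which differences of low genes are small, the median over the 6 genes was -0.22, beside -0.052 over all genes past the minimum. The SHR minus Wistar difference was -0.30 for Atp2b2, -0.26 for Ryr2, -0.25 for Atp2b4, -0.19 for Atp2a2, -0.18 for Atp2b1 and -0.090 for Itpr1. Among all genes past the minimum, 7.85% had a lower difference than Atp2b2 and 19.2% a lower one than Atp2b1. For Itpr1 this share was 38.5%.

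**Figure D3:**
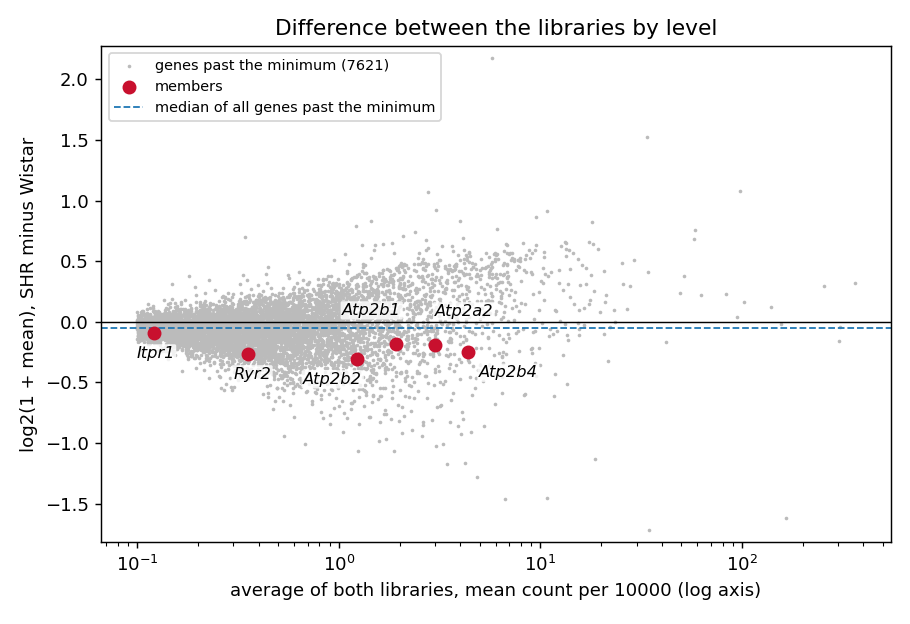
Difference of log2(1 + mean), SHR minus Wistar, against the average of both libraries in counts per 10000 (log axis) for the 7621 genes past the minimum (grey) and the 6 of them followed here (red). All 6 lie below 0 and below the dashed median of -0.052, inside the cloud of genes of their level.

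Gene length moved with the difference between the libraries. With the genes past that minimum put in 10 groups by span in GRCr8, 27.1% of the shortest group and 85.6% of the longest were lower in SHR. Ryr2, Itpr1 and Atp2b2 fall in the longest group, Atp2b1 and Atp2b4 in group 9, where 83.8% were lower, and Atp2a2 in group 8, where 81.5% were. In its own group 18.1% of genes had a lower log2 difference than Atp2b2, 22.8% a lower one than Ryr2 and 58.3% a lower one than Itpr1. For Atp2b4 the share was 20.4%, for Atp2a2 25.4% and for Atp2b1 32.4%. The part of gene length in these differences was not tested.

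**Figure D4:**
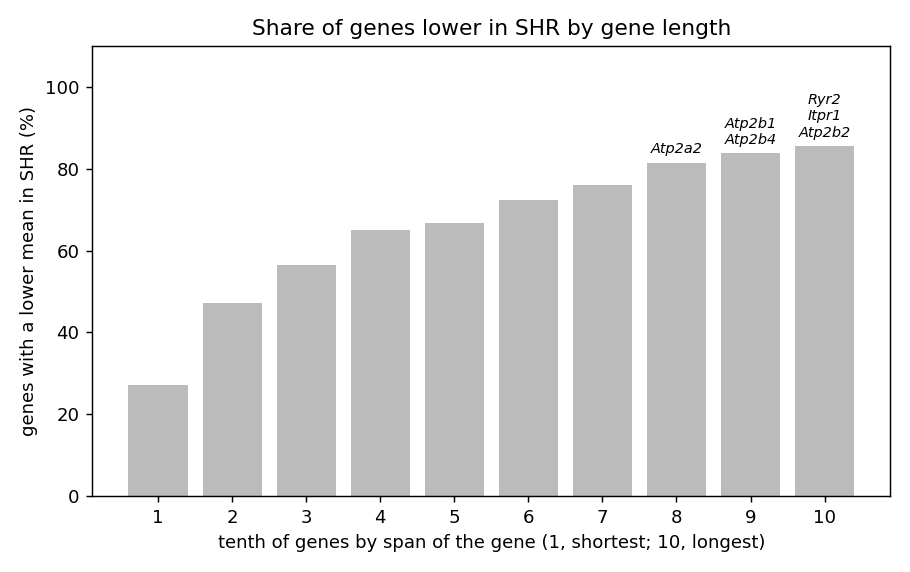
Percent of genes past the minimum with a lower mean in SHR, in 10 groups by gene span from the shortest (1) to the longest (10), with the names of the genes followed here above their groups. The share climbs from 27.1% to 85.6%, and the 6 genes lie in groups 8 to 10.

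The partners of these channels and pumps were not all lower. Of 79 further calcium handling genes in 6 lists, 78 have a line and 43 passed the minimum. Of these 43, 30 were lower in SHR (69.8%, beside 65.6% of all genes), 10 were lower and 1 was higher by 1.5 times or more, beside 26.5% and 5.22% of all genes, and the median log2 difference was -0.058.

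Among pumps, exchangers and pump partners, 6 of 16 genes passed the minimum and all 6 were lower, with a median of -0.092. For Nptn the change was only -0.101%, which gives no direction. Over all genes past the minimum 65.6% were lower and 26.5% lower by 1.5 times or more. Atp2b3, the gene of the remaining PMCA, had 0.748 per 10000 in the Wistar library and 0.438 in SHR, a change of -41.5%, and 1 of the 6 was lower by 1.5 times or more, namely Atp2b3. With it included, the PMCA sum went from 9.17 to 7.09 per 10000. The membrane proteins that pair with PMCA pumps and bring them to the cell surface differed less. Bsg, encoding basigin, had a mean of 11.5 per 10000 in the Wistar library and 10.5 in SHR, and Nptn, encoding neuroplastin, 3.90 in both.

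Partners of the release channels split in both directions, with 5 of 9 genes past the minimum lower and a median of -0.033. By 1.5 times or more 4 of the 9 were lower and 1 was higher. Over all genes past the minimum 65.6% were lower, 26.5% lower by that size and 5.22% higher by it. With 9 genes these counts cannot be set apart from those shares. Fkbp1a and Fkbp1b, whose products bind ryanodine receptors and steady their closed state, were higher in SHR. Fkbp1b had 5.60 per 10000 in the Wistar library and 8.77 in SHR, a change of 56.7%, and Fkbp1a 5.72 and 7.92, a change of 38.6%. Their sum went from 11.3 to 16.7 per 10000 while that of the ryanodine receptors went from 0.498 to 0.234. Both lie in length group 5, where 66.8% of genes were lower. They also belong to the genes averaging at least 1 per 10000, of which 45.5% were lower. In the other direction, Ahcyl1, which encodes a protein that competes with IP3 at its receptor, had 1.03 and 0.592 per 10000, a change of -42.8%. Inpp5a, an IP3 phosphatase gene, went from 0.247 to 0.120. Asph, whose transcripts include those of the store proteins junctin and junctate, went from 0.300 to 0.129. Tmem38b, a counter-ion channel gene of the store, went from 0.216 to 0.139.

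The phospholipase C list, upstream of the IP3 receptors, had 5 of 7 genes past the minimum lower, 3 of them by 1.5 times or more, with a median of -0.15. Over all genes past the minimum 65.6% were lower and 26.5% lower by that size. The first count is near its background, and 7 genes are too few to set the second apart from its own. Plcb4, an isoform driven by Gq-coupled receptors, was the most abundant by far, at 5.82 per 10000 in the Wistar library and 3.66 in SHR, a change of -37.1%. Plcg1, which acts downstream of growth factor receptors, went from 0.575 to 0.333 and Plch2 from 0.581 to 0.255. Plcb1 had 0.694 and 0.523, and Plce1, a Ras-regulated isoform, 0.459 and 0.555.

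Of the store refilling genes and luminal calcium buffers, 6 of 9 past the minimum were lower, 1 of them by 1.5 times or more, with a median of -0.13. Over all genes past the minimum 65.6% were lower and 26.5% lower by that size. The chaperones that also hold calcium in the store were the most abundant, with Canx (calnexin) at 6.50 per 10000 in the Wistar library and 5.21 in SHR and Calr (calreticulin) at 6.38 and 4.77. Saraf, which restrains store-operated entry, had 5.55 and 4.63. Calu, the calumenin gene, was lower by 1.57 times, at 0.630 and 0.400.

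Mitochondrial uptake genes were divided, with 5 of 9 past the minimum lower, 1 of them by 1.5 times or more, and a median of -0.0077. Over all genes past the minimum 65.6% were lower and 26.5% lower by that size. Vdac2 had a mean of 5.28 per 10000 in the Wistar library and 6.27 in SHR, Vdac3 4.72 and 5.45, and Vdac1 3.21 and 3.19, all of them pores of the outer membrane. Mcub, whose product damps the calcium uniporter, had 0.849 and 0.301, a change of -64.5%. In the list of endolysosomal and other store channels, 3 of 9 genes passed the minimum. All 3 were lower, none by 1.5 times, namely Tmco1 (1.03 and 0.895 per 10000), Tmbim6 (0.677 and 0.618) and the lysosomal channel gene Mcoln1 (0.194 and 0.158). Beside the shares of 65.6% and 26.5% over all genes, 3 genes are too few to set these counts apart.

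**Figure D5:**
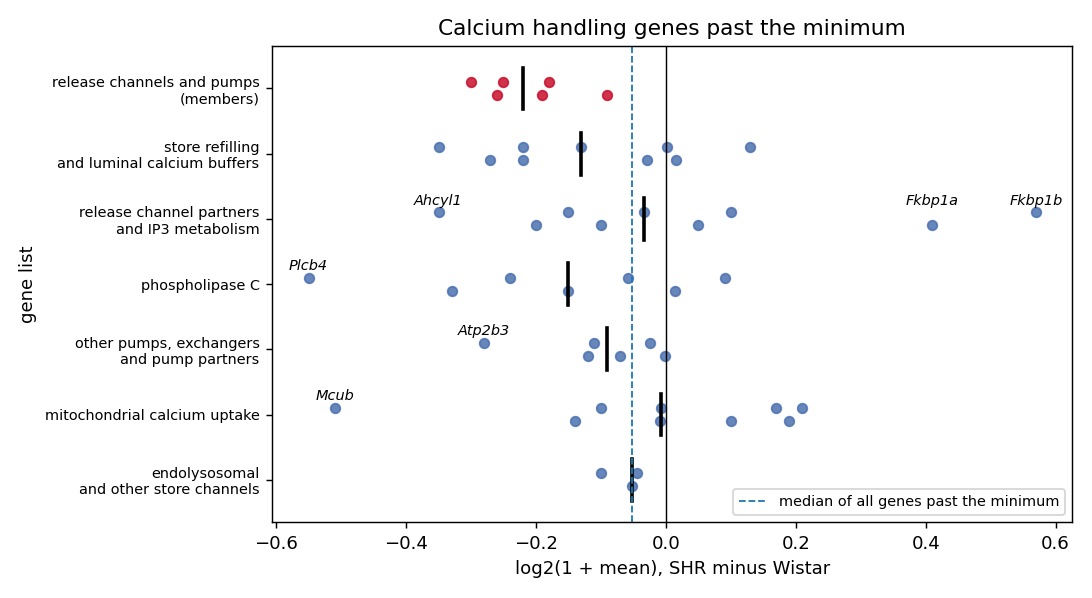
Difference of log2(1 + mean), SHR minus Wistar, of each calcium handling gene past the minimum (points), by list, with the median of each list (black bar) and of all genes past the minimum (dashed, -0.052). The 6 channels and pumps lie left of 0, while Fkbp1a and Fkbp1b stand to the right, at 0.41 and 0.57.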

How the data were processed

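Droplet counts of 1 Wistar and 1 SHR library (10x Genomics 3' v3) were processed by the authors. Their processing notes name Cell Ranger 3.0.2, Seurat 3, DESeq2 without a version and the build Rnor_6.0. Filters on cells and the treatment of doublets are not given in the sources used here. The authors deposited 1 natural log value per gene and library, ln(1 + mean per 10000 counts), taken over the cells of the sympathetic neuron cluster. The deposited comparison of the strains (fold changes, p-values and shares of cells) was not used, and its lines name none of the 10 genes.

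Values were converted back with expm1. Dropping 4 lines whose name occurs more than once left 25395 genes. Counts of genes and medians used a minimum average of 0.1 per 10000, a size of 1.5 times on the converted means and, for differences, log2 with a pseudocount of 1. Tests, errors and intervals cannot be had with 1 library per strain and unknown depth. The 10 genes, the lists and their rules were chosen with earlier results of these data known, and the groups by level and gene length were added after the values were seen. The named genes were the 10 genes, in each list the 3 of highest average and all past 1.5 times, and marker genes. Added to these were the 3 genes nearest to the highest of the 10, with clone, LOC and similar names left out of the search. Atp2a1, Atp2a3, Pln and Sln were named outside this rule. Spans came from GRCr8 (95.6% of genes past the minimum matched) and served as ranks only. Promoters were found for all 10 genes. Python 3.11.15, NumPy 2.4.6, pandas 2.3.3 and matplotlib 3.10.9 were used, and the counts and medians were tested on simulated data.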

Additional observations from a re-analysis of the deposited data

How the results depend on the processing

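Other pseudocounts, minimums and scalings were tried, 1 at a time. No paired analysis was possible because there is 1 library for each strain. A value was taken as moved past 0.05 on the log2 scale, 5 percentage points, or 1.5 times for a count, since no spread between replicates exists. The median log2 difference of the channels and pumps, -0.22, became -0.38, -0.43 and -0.051 with pseudocounts of 0.1, 0.01 and 10, -0.17 with the median of all genes set to 0 and -0.14 with no minimum. Those lower by the size, 2 of 6, became 5 of 10 with no minimum, 0 of 4 with a minimum of 1 per 10000 and 1 with a size of 2 times. Setting the median of all genes to 0 adds 0.052 to each gene, by which Ryr3, Itpr2 and Itpr3 took positive values of 0.026, 0.043 and 0.0007. The ryanodine receptor sum changed by -81.2% without Ryr2, and the IP3 receptor sum by -83.9% without Itpr1. What is left of these sums is Ryr1 and Ryr3, and Itpr2 and Itpr3, most of them near the floor in SHR. These percentages are therefore not read as sizes of a change. In the 6 lists, 30 lower genes of 43 became 52 of 71 when no minimum was set and 7 of 11 at a minimum of 1. With the median of all genes set to 0 they became 22 of 43, a shift within the limit of 1.5 times. The 10 lower by the size became 28, 1, 5 and 4 with no minimum, a minimum of 1, the centring and a size of 2 times, and the 1 higher by the size became 6, 4 and 0 with no minimum, the centring and a size of 2 times. Fewer or more genes past the minimum, and the centring itself, produce these changes by construction. Rescaling without the markers of other cells, or without ribosomal protein and mitochondrial genes, moved none of the 10 genes by 0.05. The largest sum of such markers was 8.11 per 10000, for satellite glia and Schwann cells in the Wistar library. Leaving the markers out therefore could not move a gene by 0.05, and it does not address transcripts from other cells. Ryr1 and Itpr2, near the floor, could hardly move on this scale in either case. Depth is unknown, so the counting error of the scarce release channels cannot be stated.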
